A study of Mus musculus with 6 samples.

Results

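The genes described are the semaphorins, plexins, neuropilins, ephrins and Eph receptors, families of cell-surface and secreted proteins that steer growing axons and migrating cells. The 52 genes were listed by family name, and a gene was taken as measured where an array row named that gene alone. That held for 51 of them, out of 19938 genes with such a row, and Ephb2 was not analysed here. Whole brains were taken from mouse embryos at day 16.5 of gestation, and RNA was measured in 3 wild-type embryos (Tdp2+/+) and 3 embryos with the Tdp2Δ1-3 genotype, a deletion of exons 1 to 3 of Tdp2, called mutants from here on. Tdp2 encodes the enzyme that frees DNA ends from trapped topoisomerase II, and neither genotype received a treatment. Each brain was read on 1 Affymetrix Mouse Gene 1.0 ST array, and the titles call the 3 brains of a genotype biological replicates. Brains are numbered by the replicate number in their titles. The labels used here name no strain, sex or litter.

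In the semaphorin system, a semaphorin on or released from one cell binds a plexin on another, and the plexin acts through small GTPases on the cytoskeleton of the growth cone. The secreted class 3 semaphorins mostly bind neuropilins, which pair with A-type plexins as the signalling partner. Eph receptors are tyrosine kinases that meet their ephrins at cell contacts, where signals can run into both cells. A-type ephrins are held in the membrane by a lipid anchor and mainly bind EphA receptors, while B-type ephrins cross the membrane and mainly bind EphB receptors. In the embryonic brain these systems are known for sorting axons into tracts and maps, for boundaries between cell groups and for vessel patterning.

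Values were log2 values with the median of each row over the 6 arrays set to 0. A value therefore says how a brain stood against the other brains for the same gene, and levels cannot be compared between genes. For the same reason, the presence of the defining markers of brain could not be read from these values. Array medians lay between -0.011 and 0.014. As the check of the genotypes, Tdp2 had values of 0.90, 1.10 and 1.34 in wild-type brains against -1.05, -0.90 and -0.94 in mutant brains, a difference of -2.07 ± 0.10 (SE, n = 3 per genotype). The row may hold probes outside the deleted exons.

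Guidance genes differed in both directions between the genotypes, and every difference called was below 1.5-fold. The receptor gene Epha6 and the semaphorin genes Sema3a, Sema3c, Sema3d and Sema4f fell in the mutants. The semaphorin gene Sema5b and the ephrin genes Efna4 and Efnb1 rose. A gene was called at a limma adjusted p under 0.05, with adjustment over the 23410 array rows that name a gene. By that rule 8 of 51 guidance genes were called (15.7%), against 6.47% of all rows. Of these 3 were higher, where the share over all rows was 2.34%, and 5 were lower, where it was 4.13%. The median difference, mutant minus wild type, was -0.05 over the 51 genes and 0.013 over all rows. In 8 genes all mutants lay above all wild types and in 17 all lay below, which is 49.0% of the genes. Over all rows the mutants lay above in 13.1% and below in 12.6%. At the 1.5-fold limit that the series text names, 0 guidance genes were called, against 0.188% of rows higher and 0.453% lower.

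With all arrays in the fit, the ligand genes held most of the calls. Of 28 semaphorin and ephrin genes 7 were called (25.0%), 3 higher and 4 lower, with a median difference of -0.06. Of 23 plexin, neuropilin and Eph receptor genes 1 was called (4.35%), with a median of -0.04. Of all rows 6.47% were called. At an unadjusted p under 0.05 by limma the counts were 13 of 28 ligands and 10 of 23 receptors, against 21.8% of all rows. With wild-type brains 1, 2 and 3 left out in turn, 2, 0 and 4 ligands and 1, 1 and 1 receptors were called by limma. With mutant brains 1, 2 and 3 left out, it was 9, 0 and 2 ligands and 3, 1 and 1 receptors. The share of all rows called ran from 0.619% to 10.7% in these fits. Whether the shares differ between ligands and receptors was not tested. On the semaphorin side 24 of 31 genes had negative differences, and on the Eph side 9 of 20 had. Over all rows 43.2% of the differences were negative.

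Markers of several cell populations moved with the same genotypes. All 14 cycling-cell genes measured rose (median difference 0.58), 12 of 19 genes of synapses and mature neurons fell (median -0.42), and 5 of 10 astrocyte genes fell (median -0.29). Over the cycling-cell list the median value per brain ran from -0.43 to -0.20 in the wild types and from 0.20 to 0.38 in the mutants. Over the synapse list it ran from 0.11 to 0.23 in the wild types and from -0.38 to -0.11 in the mutants. Of 15 endothelial and pericyte genes Cldn5 and Anpep fell (median -0.05), of 12 meningeal and fibroblast genes Ogn and Slc6a13 fell (median -0.13), and of 9 oligodendrocyte lineage genes Olig1 and Pdgfra fell (median -0.23). Of 11 radial glia genes 4 rose (median 0.15). None of 9 microglial genes was called by limma, with 2 at an unadjusted p under 0.05, and of 7 red-cell genes Hbb-y and Hba-x rose. On omission of wild-type brains 1, 2 and 3 in turn 7, 4 and 10 synapse genes and 14, 12 and 14 cycling-cell genes were called. On omission of mutant brains 1, 2 and 3 it was 17, 1 and 8 synapse genes and 14, 2 and 14 cycling-cell genes. Of all rows 3.1%, 1.43% and 4.98% were called without wild-type brains 1, 2 and 3. Without mutant brains 1, 2 and 3 it was 10.7%, 0.619% and 2.55%. At most 1 gene was called in each of the astrocyte, radial glia, oligodendrocyte, endothelial and meningeal lists on omission of wild-type brain 2 or of mutant brain 2. The part of these populations in the guidance gene differences was not tested. In RNA from a whole brain, fewer cells of a type and less RNA per cell cannot be told apart.

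**Figure D1:**
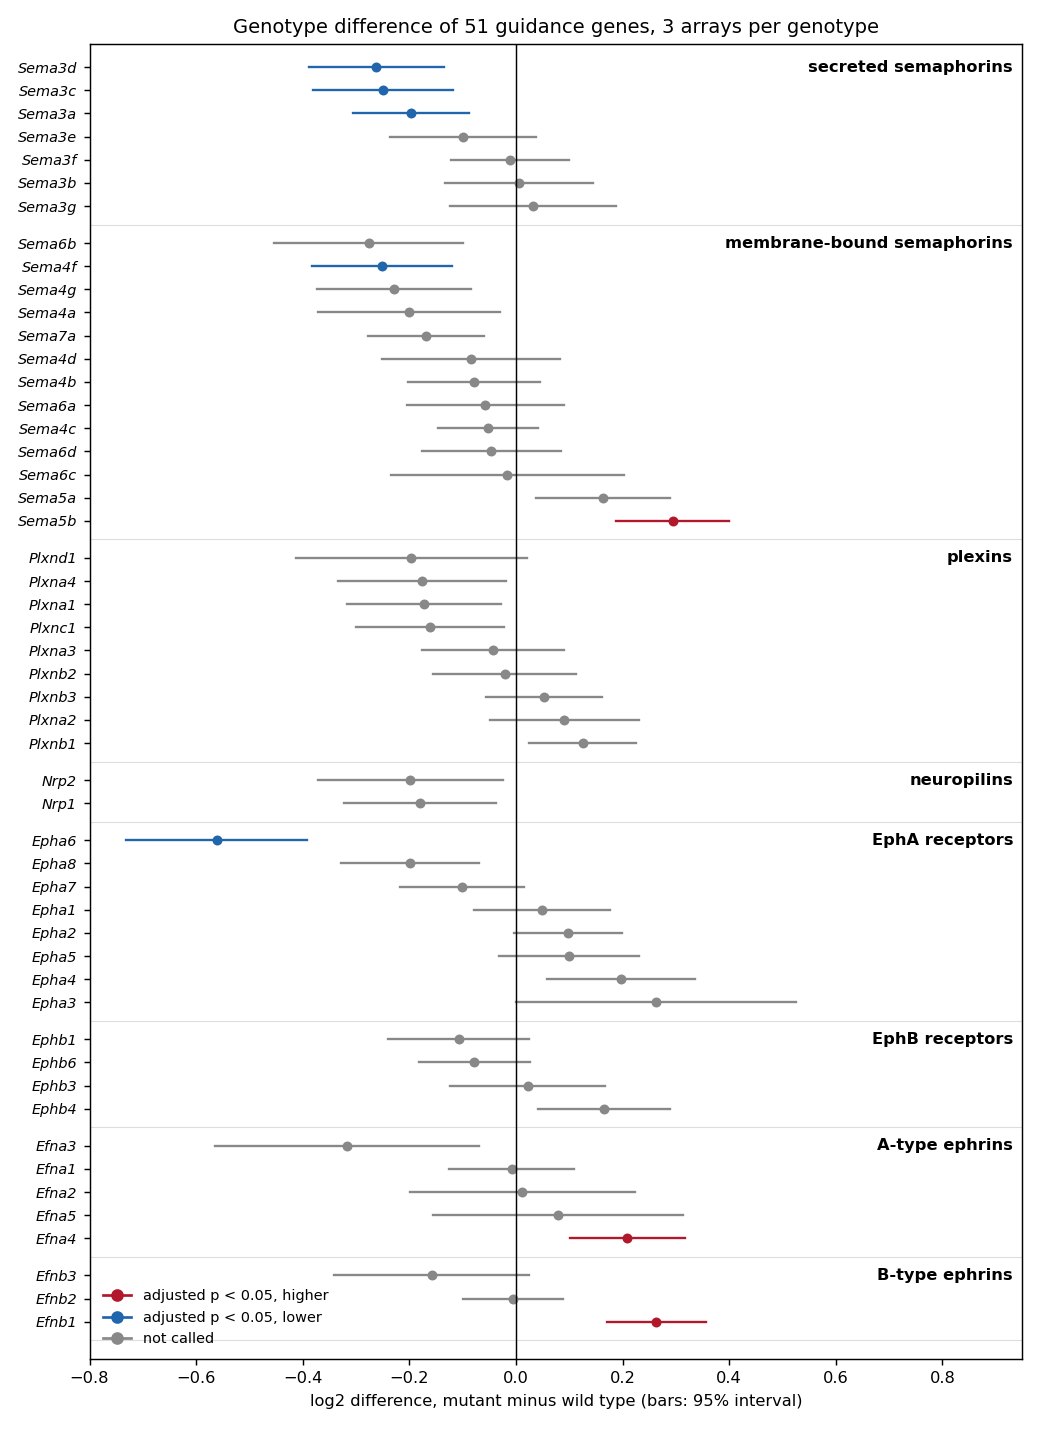
Difference in log2 value, mutant minus wild type, for the 51 guidance genes grouped by class, with points for the limma estimate and bars for its 95% interval (3 arrays per genotype). The 5 genes called lower are blue, the 3 called higher are red and the others grey, and Epha6 at -0.56 lies farthest from 0.

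The secreted semaphorins were lower or near 0. Of 7 genes, Sema3a, Sema3c and Sema3d fell, none rose, and the class had a median difference of -0.10. Sema3A is the classical repellent of cortical and sensory axons, and Sema3C is known as a cue for cortical axons crossing the midline. Sema3D is a further member of the same secreted class.

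Sema3d had values of 0.21, 0.11 and 0.08 in wild-type brains against -0.08, -0.09 and -0.21 in mutant brains. Every mutant lay below every wild type, with wild-type brain 1 highest and mutant brain 3 lowest. The difference was -0.26 ± 0.05 (SE, n = 3 per genotype), or 1.20-fold lower, at a limma adjusted p of 0.032. Sema3c had values of 0.06, 0.14 and 0.19 in wild-type brains against -0.21, -0.06 and -0.08 in mutant brains, so the groups again did not overlap and mutant brain 1 stood lowest. It fell by 0.25 ± 0.06 (SE), 1.19-fold (limma adjusted p = 0.042). Sema3a had values of 0.06, 0.16 and 0.09 in wild-type brains against -0.07, -0.06 and -0.14 in mutant brains. Wild-type brain 2 was highest, and the gap between the groups was the distance from 0.06 to -0.06. Sema3a fell by 0.20 ± 0.05 (SE), 1.15-fold (limma adjusted p = 0.048).

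The other 4 secreted semaphorins were not called. Sema3e, which binds plexin D1 without a neuropilin, had a difference of -0.10 ± 0.06, with wild-type brain 3 among the mutants. Sema3f, a repellent that acts through neuropilin 2, had a difference of -0.011 with a 95% interval from -0.12 to 0.10. Sema3b (0.0057) and Sema3g (0.03), the latter known from vessels, also had intervals on both sides of 0. The calls of Sema3a and Sema3c did not survive omission of any 1 array, with limma adjusted p from 0.056 to 0.18 and from 0.055 to 0.15. Sema3d still passed when wild-type brain 3 or mutant brain 1 was omitted, but not on omission of wild-type brain 1 (adjusted p = 0.080) or 2 (0.10), nor of mutant brain 2 (0.11) or 3 (0.10). In these fits the difference ran from -0.22 to -0.17 for Sema3a and from -0.28 to -0.20 for Sema3c. For Sema3d it ran from -0.29 to -0.22.

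Sema3a and Sema3d are neighbours on chromosome 5 with no protein-coding gene between them, and 3 protein-coding genes lie between Sema3a and Sema3e. Sema3c is on the same chromosome but not within 10 genes of them. Because these 3 genes fell together, the 250 bases before their annotated starts are shown, from RefSeq on GRCm38.p6, all on the plus strand. The windows are chr5:13396534-13396783 for Sema3a, chr5:17574566-17574815 for Sema3c and chr5:12382916-12383165 for Sema3d. Capitals mark matches on either strand to 4 motifs, the GC box GGGCGG, the TATA box TATAAA and the E-boxes CAGCTG and CAGATG, none of which contains another.

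Sema3a: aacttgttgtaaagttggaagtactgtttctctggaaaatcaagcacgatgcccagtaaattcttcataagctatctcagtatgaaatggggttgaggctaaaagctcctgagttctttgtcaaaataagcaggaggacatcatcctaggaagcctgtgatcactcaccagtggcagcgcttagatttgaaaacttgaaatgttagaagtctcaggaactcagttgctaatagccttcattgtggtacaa
Sema3c: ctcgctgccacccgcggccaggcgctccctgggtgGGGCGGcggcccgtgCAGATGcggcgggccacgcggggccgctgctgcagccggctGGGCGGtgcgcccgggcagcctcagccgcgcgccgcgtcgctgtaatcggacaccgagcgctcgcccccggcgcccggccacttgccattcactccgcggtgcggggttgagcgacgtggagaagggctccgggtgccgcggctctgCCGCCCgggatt
Sema3d: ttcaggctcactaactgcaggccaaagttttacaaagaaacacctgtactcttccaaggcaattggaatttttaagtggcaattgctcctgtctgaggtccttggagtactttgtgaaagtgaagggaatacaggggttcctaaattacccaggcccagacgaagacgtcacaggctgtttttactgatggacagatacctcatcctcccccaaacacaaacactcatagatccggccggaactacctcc

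The 3 windows had little in common in base composition. That of Sema3c was 78.4% G and C with 39 CpG pairs and held 3 GC boxes and 1 CAGATG. Those of Sema3a and Sema3d were 40.8% and 46.8% G and C with 2 and 4 CpG pairs, and none of the 4 motifs was found in them.

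The membrane-bound semaphorins moved in both directions. Of 13 genes Sema4f fell, Sema5b rose and 11 were not called, with a median difference of -0.08. Class 4, 5 and 6 semaphorins cross the membrane, while Sema7A is held by a lipid anchor. Class 5 semaphorins carry thrombospondin-type repeats outside the cell.

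Sema5b had values of -0.11, -0.21 and -0.17 in wild-type brains against 0.11, 0.17 and 0.12 in mutant brains. All mutants stood above all wild types, and the mutants lay close together. Sema5b rose by 0.29 ± 0.05 (SE, n = 3 per genotype), or 1.23-fold, at a limma adjusted p of 0.013, the largest rise called among the 51 genes. The call did not survive omission of wild-type brain 2 (adjusted p = 0.067) or mutant brain 2 (0.074). In those fits 1.43% and 0.619% of all rows were called, and the difference of Sema5b was 0.27 in both. Its relative Sema5a had a positive difference of 0.16 ± 0.05 with groups that did not overlap, and it was not called (limma adjusted p = 0.12).

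Sema4f, a neuronal membrane semaphorin, had values of 0.19, 0.14 and 0.05 in wild-type brains against -0.15, -0.05 and -0.18 in mutant brains. The groups did not overlap, with wild-type brain 3 and mutant brain 2 nearest each other. It fell by 0.25 ± 0.06 (SE), 1.19-fold (limma adjusted p = 0.042), a call kept with wild-type brain 3 left out (adjusted p = 0.043) and lost with each other array left out (0.065 to 0.15). In these fits the difference ran from -0.29 to -0.22.

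Among the other membrane-bound semaphorins the most negative differences were those of Sema6b (-0.28, adjusted p = 0.076 by limma), Sema4g (-0.23, 0.073), Sema4a (-0.20, 0.16) and Sema7a (-0.17, 0.078). In these 4 genes every mutant lay below every wild type. After cyclic loess scaling the value of Sema4a turned to 0.03 and that of Sema6b was -0.013. The values had been centred by row and hold no level, so this scaling could not follow signal intensity. Sema6b has a further array row with a difference of -0.28, whose values match those of the first row to 2 decimals in every brain. Sema4d, the ligand of plexin B1, had a difference of -0.08, and its other row gave -0.07. Sema4b, Sema4c, Sema6a, Sema6c and Sema6d lay between -0.08 and -0.02.

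**Figure D2:**
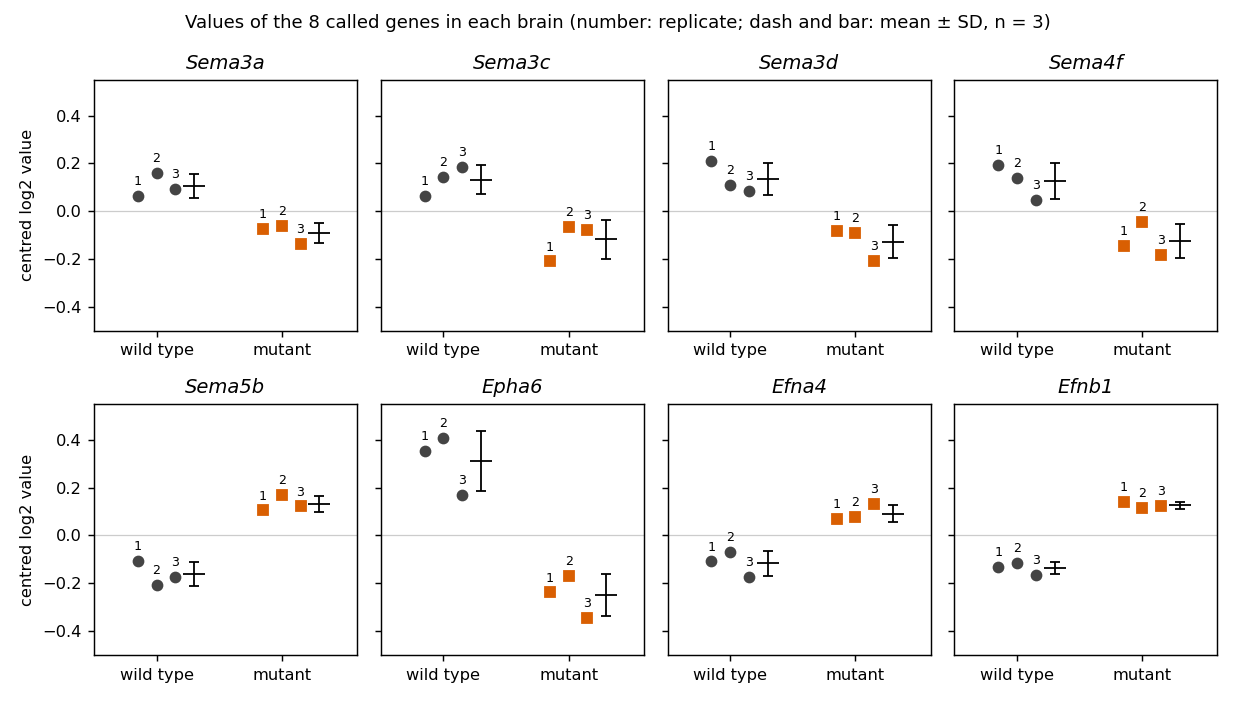
Centred log2 value of the 8 called genes in each of the 6 brains, with circles for wild type, squares for mutant, numbers for the replicate, and a dash with a bar for the mean ± SD (n = 3). In every panel the groups do not overlap, and the distance between them is widest for Epha6.

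Plexins are the receptors that carry the semaphorin signal into the cell. None of 9 plexin genes was called by limma (4 at an unadjusted p under 0.05), and their median difference was -0.04. The lowest and highest differences were -0.20 for Plxnd1 and 0.12 for Plxnb1.

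Plxnb1, the Sema4D receptor, had values of -0.04, -0.09 and -0.04 in wild-type brains against 0.11, 0.04 and 0.06 in mutant brains. Its groups did not overlap, and the difference was 0.12 ± 0.04 (SE, limma adjusted p = 0.14). Plxna1 had values of 0.14, 0.03 and 0.04 in wild-type brains against -0.03, -0.05 and -0.22 in mutant brains, where mutant brain 3 stood apart from the other mutants. The difference was -0.17 ± 0.06 (SE, limma adjusted p = 0.15). Plexin A1 and plexin A4 are signalling partners of the neuropilins. Plxna4 had a difference of -0.18 and overlapping groups, while Plxna2 and Plxna3 had differences of 0.09 and -0.04. Plxnb2 and Plxnb3 had differences of -0.02 and 0.05. Plxnc1, the receptor of Sema7A, had a difference of -0.16 beside the -0.17 of its ligand gene, and in both genes the mutants lay below the wild types. Neither gene was called (limma adjusted p = 0.17 and 0.078). Sema4d and its receptor gene Plxnb1 had differences of opposite sign (-0.08 and 0.12). Plxnd1, known mainly from vessels, had values from -0.29 to 0.06 in the mutants and a 95% interval from -0.41 to 0.02.

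Neuropilins bind the secreted semaphorins, and neuropilin 1 also binds VEGF. Both genes had negative differences that were not called by limma, although both had an unadjusted p under 0.05. Nrp1 had values of 0.02, 0.11 and 0.21 in wild-type brains against -0.15, -0.03 and -0.02 in mutant brains, a difference of -0.18 ± 0.06 (SE, adjusted p = 0.13) without overlap. Nrp2 had values of 0.19, 0.05 and -0.01 in wild-type brains against 0.01, -0.13 and -0.23 in mutant brains, a difference of -0.20 ± 0.08 (SE, adjusted p = 0.17). Wild-type brain 3 and mutant brain 1 overlapped for Nrp2. The intervals, -0.32 to -0.04 and -0.37 to -0.02, include the sizes called for the secreted semaphorins.

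The EphA receptors showed the widest range of differences of the 8 classes, from -0.56 to 0.26. Of 8 genes Epha6 fell and 7 were not called, and the class median was 0.07. Epha6 encodes an EphA receptor of neurons.

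Epha6 had values of 0.35, 0.41 and 0.17 in wild-type brains against -0.24, -0.17 and -0.34 in mutant brains. The nearest brains, wild-type brain 3 and mutant brain 2, were still 0.17 and -0.17. The difference was -0.56 ± 0.07 (SE, n = 3 per genotype, 95% interval -0.73 to -0.39), 1.48-fold lower (limma adjusted p = 0.0087). Of the 8 called genes it was the only one to pass with each of the 6 arrays left out in turn, with adjusted p from 0.011 to 0.045. Its difference ranged from -0.63 to -0.51 over all alternatives. Its span of 969 kb in RefSeq is the longest of the 51 genes.

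The window before the start of Epha6 is shown because this gene had the largest difference. It lies at chr16:60605532-60605781 on the minus strand (RefSeq, GRCm38.p6), and capitals mark the same 4 motifs.

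Epha6: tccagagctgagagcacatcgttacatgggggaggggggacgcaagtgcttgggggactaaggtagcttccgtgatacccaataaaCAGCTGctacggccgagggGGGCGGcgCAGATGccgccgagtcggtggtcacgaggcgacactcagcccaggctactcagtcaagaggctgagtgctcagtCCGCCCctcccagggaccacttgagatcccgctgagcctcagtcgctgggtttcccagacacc

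The window was 62.8% G and C and held 2 GC boxes, 1 CAGCTG and 1 CAGATG.

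Epha8 had values of 0.22, 0.05 and 0.08 in wild-type brains against -0.08, -0.12 and -0.05 in mutant brains, which did not overlap. The difference was -0.20 ± 0.06 (SE, limma adjusted p = 0.080). Epha7 had a difference of -0.10. The other 5 EphA genes had positive differences, which ran from 0.05 for Epha1 to 0.26 for Epha3. EphA4, unusual in binding ephrins of both types, is a receptor of corticospinal axons. Epha4 had a difference of 0.20 ± 0.06 (SE, limma adjusted p = 0.098) with all mutants above all wild types, and Epha2 and Epha5 had differences of 0.10 each. Epha3 is on chromosome 16 with Epha6, with 4 protein-coding genes between them. Its array values, chosen for display after they were seen, were -0.08, 0.01 and -0.01 in wild-type brains against -0.05, 0.31 and 0.45 in mutant brains. Mutant brain 1 of Epha3 lay among the wild types, and the difference was not called (0.26 ± 0.11, limma adjusted p = 0.23). Without mutant brain 1, the array nearest the other genotype, it was 0.41 (limma adjusted p = 0.010), in a fit that called 10.7% of all rows. With any other array left out the limma adjusted p was 0.32 to 0.53.

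None of the 4 EphB receptor genes measured was called by limma (1 at an unadjusted p under 0.05), and their median difference was -0.03. Ephb4, the receptor that marks veins, had values of -0.02, -0.12 and -0.15 in wild-type brains against 0.14, 0.04 and 0.02 in mutant brains. The groups did not overlap, with a difference of 0.17 ± 0.05 (SE, limma adjusted p = 0.12). Ephb1, a receptor known from the retinal axons that stay uncrossed, had values of -0.0012, 0.03 and 0.07 in wild-type brains against -0.04, 0.0012 and -0.19 in mutant brains. Its groups overlapped, and its difference was -0.11 ± 0.06 (SE, limma adjusted p = 0.34). A further Ephb1 row, with fewer accessions, had the opposite sign (0.17 ± 0.15), and the mean of both rows gave 0.03. Ephb3 had a difference of 0.02 and Ephb6, whose kinase domain is inactive, one of -0.08.

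Ephrins are the ligands of the Eph receptors. Of 5 A-type ephrin genes Efna4 rose, and the class median was 0.012. Efna4 had values of -0.11, -0.07 and -0.17 in wild-type brains against 0.07, 0.08 and 0.13 in mutant brains, with no overlap and mutants close together. It rose by 0.21 ± 0.05 (SE, n = 3 per genotype), or 1.16-fold, at a limma adjusted p of 0.039. The call was kept without mutant brain 1 (adjusted p = 0.043) and lost with each other array left out (0.083 to 0.13). In these fits the difference ran from 0.18 to 0.23.

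Efna3, which is next to Efna4 on chromosome 3, had a difference of the other sign. Its values were 0.01, 0.04 and 0.05 in wild-type brains against -0.01, -0.40 and -0.45 in mutant brains. Mutant brain 1 was thus just below the wild types and the other mutants far below. The difference was -0.32 ± 0.11 (SE, limma adjusted p = 0.13). It was -0.46 without mutant brain 1 (limma adjusted p = 0.0043), in a fit that called 10.7% of all rows. With any other array left out the limma adjusted p was 0.20 to 0.38. After cyclic loess scaling, which could not follow signal intensity in centred values, the difference turned to 0.18. Efna1, the next gene in the same row on chromosome 3, had a difference of -0.0077. Efna2 and Efna5, the latter a repellent of retinal axons, had differences of 0.012 and 0.08 with intervals on both sides of 0.

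Of 3 B-type ephrin genes Efnb1 rose, and the class median was -0.0056. Ephrin B1 is expressed by neural progenitors, and is known for a role in their maintenance. Efnb1, an X-linked gene, had values of -0.13, -0.11 and -0.17 in wild-type brains against 0.14, 0.11 and 0.12 in mutant brains. The groups lay well apart, and the mutants spanned only 0.11 to 0.14. Efnb1 rose by 0.26 ± 0.04 (SE, n = 3 per genotype), or 1.20-fold, at a limma adjusted p of 0.012. That call, too, did not survive omission of wild-type brain 2 (adjusted p = 0.056) or mutant brain 2 (0.067). With each array left out in turn the difference of Efnb1 ran from 0.25 to 0.27. The window before its start, chrX:99135811-99136060 on the plus strand (RefSeq, GRCm38.p6), is shown for comparison with that of Epha6, as the rise of smallest p.

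Efnb1: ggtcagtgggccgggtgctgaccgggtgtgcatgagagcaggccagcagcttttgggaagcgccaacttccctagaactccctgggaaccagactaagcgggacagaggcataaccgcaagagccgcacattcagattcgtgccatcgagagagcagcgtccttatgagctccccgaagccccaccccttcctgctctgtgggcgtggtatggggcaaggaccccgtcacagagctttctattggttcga

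This window was 60.0% G and C with 13 CpG pairs, and none of the 4 motifs was found in it. Efnb2, the ephrin of arteries, had a difference of -0.0056 with a 95% interval from -0.10 to 0.09. Efnb3 had values of -0.01, 0.01 and 0.06 in wild-type brains against 0.05, -0.22 and -0.25 in mutant brains. Mutant brain 1 lay among the wild types for Efnb3, as it did for Epha3, and the difference was -0.16 ± 0.08 (SE, limma adjusted p = 0.30). Without mutant brain 1 it was -0.25 (limma adjusted p = 0.021), in a fit that called 10.7% of all rows. With any other array left out the limma adjusted p was 0.34 to 0.63. With array weights, where 23.2% of all rows were called, the difference was -0.20 (limma adjusted p = 0.032). After cyclic loess scaling the difference was -0.0006. That scaling could not follow signal intensity in centred values.

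**Figure D3:**
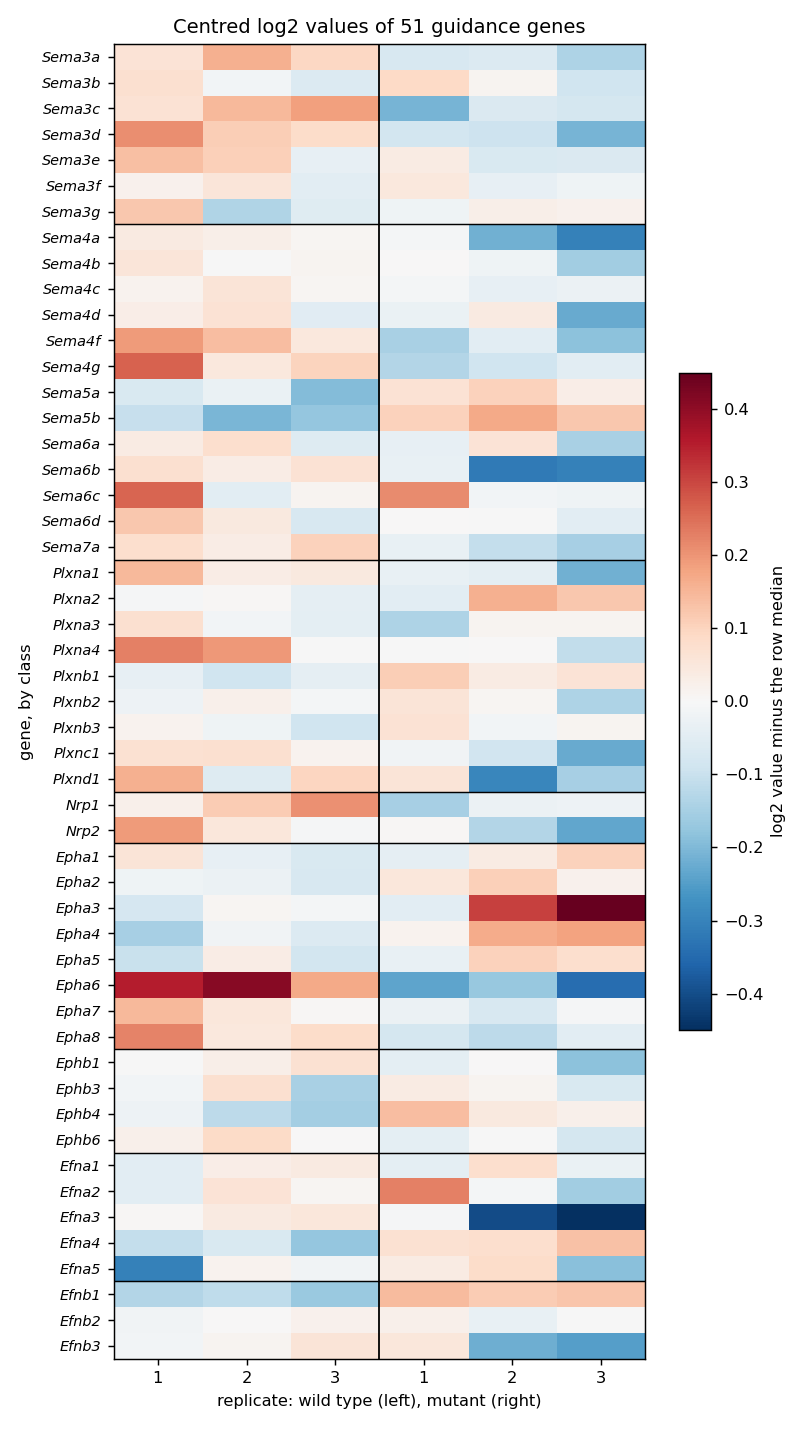
Centred log2 value of each of the 51 guidance genes (rows, by class) in the 6 brains (columns, wild type left of the line and mutant right), red above and blue below the row median. Epha3 and Efna3 show mutant brain 1 near the wild types and brains 2 and 3 far from them, while Epha6 and Sema5b differ in every mutant.

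Over the 51 guidance genes, the mutant brains did not depart from the wild types to the same degree, which is described without a test. Departure was signed by the direction of each gene's difference. A mutant past the wild-type mean on the other side thus counted as departing less than one at that mean. By this measure mutant brain 1 departed least for 26 of the 51 genes, against 14 for brain 2 and 11 for brain 3. Mutant brain 3 departed most for 24 genes. Measured likewise from the mutant mean, wild-type brains 1, 2 and 3 departed least for 17, 18 and 16 genes and most for 21, 12 and 18. The same counts were not made over all rows. In 4 genes, Plxnd1, Epha3, Efna2 and Efna3, the mutants spanned more than 0.3. Wide spans were not particular to the mutants, as wild types ran from -0.31 to 0.02 for Efna5 and from -0.05 to 0.26 for Sema6c. Spans were not counted over all rows. Over the synapse list the median value was -0.11 in mutant brain 1, -0.30 in brain 2 and -0.38 in brain 3, and over the cycling-cell list it was 0.20, 0.36 and 0.38. Whether these lists account for the spread of the guidance genes was not tested.

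The calls were also counted by the span of the gene. Of 21 genes with a span over 100 kb, 4 fell and 1 rose, with a median difference of -0.10 (19.0% lower). Of 30 genes of 100 kb or less, 1 fell and 2 rose, with a median of -0.02 (3.3% lower). Among all 2294 genes over 100 kb, 16.5% were called lower and 1.83% higher (median -0.06), and among 17562 shorter genes 2.82% and 2.34% (median 0.016). Both shares of falls among the guidance genes were thus near those of all genes of like span. The shares of rises, from 1 and 2 genes, were 4.76% and 6.67%, against 1.83% and 2.34%. No difference between these shares was tested.

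As a group the 45 guidance genes with a RefSeq start window were rich in G and C, with a median of 64.4% and 16 CpG pairs in the 250 bases, against 56.4% and 11 over 15614 measured genes. The GC box was found in 77.8% of them against 46.0%, TATAAA in 2.22% against 11.2%, CAGCTG in 13.3% against 12.2% and CAGATG in 8.89% against 12.1%. These are matches of letters, described without a test.

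Partners of the semaphorin pathway inside and beside the receptor also moved. Of 39 measured, 2 rose and 5 fell (17.9%, against 6.47% of all rows), with a median difference of -0.10. Rnd2 and Rnd3, which act in neuronal migration, rose by 0.35 ± 0.05 and 0.39 ± 0.06 (SE, limma adjusted p = 0.0090 and 0.012). Rnd3 had values of -0.33, -0.23 and -0.13 in wild-type brains against 0.13, 0.22 and 0.15 in mutant brains, and Rnd2 had -0.21, -0.18 and -0.12 against 0.20, 0.20 and 0.12. Met, the HGF receptor, which can associate with B-type plexins, had 0.21, 0.27 and 0.37 in wild-type brains against -0.25, -0.21 and -0.31 in mutant brains. It fell by 0.54 ± 0.05 (SE, limma adjusted p = 0.0045) and passed with each of the 6 arrays left out. Mical2, of a family of actin-oxidizing enzymes, fell by 0.36, Farp1 by 0.29, Dpysl5, a collapsin response mediator protein, by 0.27 and Chl1, an adhesion molecule of the L1 family, by 0.24. The limma adjusted p of these 4 genes lay between 0.014 and 0.044. Dpysl5 was not called after cyclic loess scaling, where its difference was -0.15 (limma adjusted p = 0.0646), nor with all rows tested (0.0598). On omission of wild-type brains 1, 2 and 3 in turn 4, 3 and 4 semaphorin partners were called, and on omission of mutant brains 1, 2 and 3 it was 9, 1 and 3. The share of all rows called in these fits ran from 0.619% to 10.7%.

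None of the 32 partners of the Eph and ephrin pathway was called by limma (5 at an unadjusted p under 0.05), with a median difference of 0.0075. Those of smallest p were Ngef and Inppl1. Ngef encodes ephexin, an exchange factor that acts downstream of EphA receptors, and had a difference of -0.33 ± 0.08 (SE, limma adjusted p = 0.053). It passed without wild-type brain 1 (limma adjusted p = 0.043), with the replicate block (0.0385), equal array medians (0.046), cyclic loess (0.0247) and array weights (0.0123). Inppl1, the lipid phosphatase SHIP2, which binds EphA2, had a difference of 0.23 ± 0.07 (SE, limma adjusted p = 0.084). A further 3 Eph partners, named after their values were seen, passed under some alternatives in limma. Sdcbp did so with the replicate block (adjusted p = 0.039) and array weights (0.0402), Fyn without mutant brain 1 (0.0318) and with array weights (0.00922), and Trio with array weights (0.0288). Of all rows 23.2% were called with array weights, 10.3% with the replicate block and 10.7% without mutant brain 1, against 6.47% in the main fit. That semaphorin partners were called and Eph partners were not is no test of a difference between the lists.

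The count of guidance genes called depended on each array. On omission of wild-type brains 1, 2 and 3 in turn it was 3, 1 and 5, and on omission of mutant brains 1, 2 and 3 it was 12, 1 and 3, while the share of all rows called ran from 0.619% to 10.7% in the same fits. With array weights 23 of the 51 guidance genes were called, when 23.2% of all rows were.

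**Figure D4:**
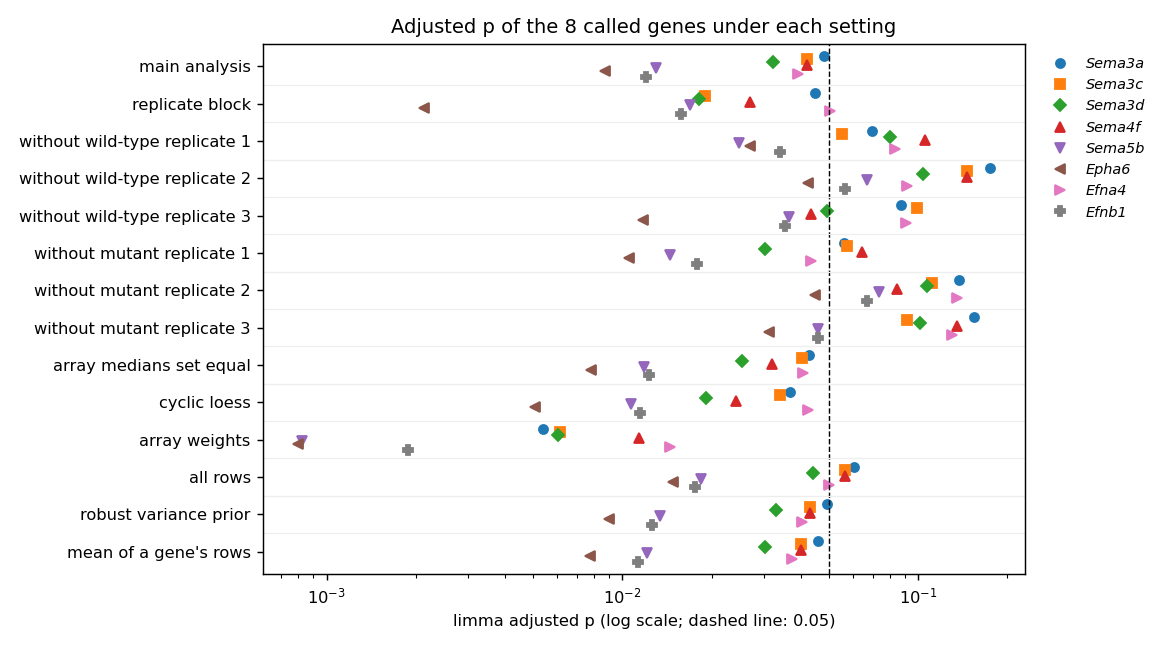
Limma adjusted p (log scale) of the 8 called guidance genes, 1 marker shape per gene, in the main analysis and under each of the 13 alternatives, with a dashed line at 0.05. Epha6 stays left of the line throughout, while Sema3a and Sema3c lie right of it whenever 1 array is left out.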

How the data were processed

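RNA from 6 embryonic mouse brains was extracted with Trizol, purified on columns and hybridized to Affymetrix Mouse Gene 1.0 ST arrays, per the labels' protocols. The authors made the deposited log2 values with RMA (series text), in Affymetrix Expression Console (per the submitters' processing notes). Each row had a median of 0 over the 6 arrays, to within 5e-07. No label describes this centring, and it left no levels, so no filter on low values could be applied. The log base is not written in the table and was taken from RMA.

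Of 28856 rows, 23410 name a gene and were tested, and genes were named from the 21789 rows that name 1 gene. Symbols were updated through RefSeq (GRCm38.p6). Where a gene has several rows (Sema4d, Sema6b and Ephb1 here), the row with most accessions was used, and at a tie the row with the lower number. Mutants were set against wild types in limma 3.58.1 (R 4.3.3, lmFit and eBayes, two-sided, Benjamini-Hochberg over 23410 rows), errors are moderated standard errors and intervals are at 95%. The fit was tested on simulated data with planted changes of 1.5-fold or more. Smaller changes, the size of all those called among the guidance genes, were not tried. Precision is limited by 3 arrays per genotype. Figures used matplotlib 3.10.9.

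The guidance genes, pathway lists, marker lists and tests were chosen with earlier results of these data known. Arrays were shown for called genes and the 2 genes of smallest p in each class, and of the partner lists called genes and the 2 of smallest p were named. Epha3 was added. Of 185 distinct genes on the pathway and marker lists, 175 had a row. Alternatives were a replicate block, each array left out, equal array medians, cyclic loess, array weights, all rows, a robust variance prior, the mean of a gene's rows and a 1.5-fold limit.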

Additional observations from a re-analysis of the deposited data

How the results depend on the processing

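With 1 array left out, between 0 and 5 guidance genes were called higher and between 1 and 7 lower, where all arrays gave 3 and 5. On omission of wild-type replicate 2 or mutant replicate 2 none was higher (0 genes), where 5 and 6 genes had positive differences at an unadjusted p under 0.05 by limma. Array weights gave 7 higher and 16 lower. Testing all 28856 rows left 2 lower. At a 1.5-fold limit 0 were higher and 0 lower (7 and 16 at an unadjusted p under 0.05). The replicate block gave 3 higher and 7 lower, when 10.3% of all rows were called, against 6.47% without it. It lost the call of Efna4 (adjusted p = 0.0502) and added Sema6b, Nrp2 and Epha4. Deviations from the group means correlated at 0.21, 0.05 and 0.20 between brains of the same number. Between brains of different number they correlated at -0.22 to 0.06. The series text speaks of 3 independent pairs of brains, but no label ties the replicate numbers to pairs. These correlations do not show that the numbers pair the brains, and the main fit has no block. None of the 8 called genes changed sign under any alternative. Omission of an array could not have changed it, as their groups did not overlap. The replicate block, all rows and the robust variance prior left each difference as it was.

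Of 663 recomputed differences 28 had the opposite sign, in 14 genes that were not called with all arrays. Cyclic loess was run on values already centred, which hold no level, so it could not follow signal intensity. After it Sema3b was -0.0058, Sema4a 0.033 and Efna3 0.18. With array weights Sema6c was 0.028, Ephb3 -0.034, Efna1 0.011 and Efna2 -0.051, and with the mean of its rows Ephb1 was 0.034. With 1 array left out the differences ran from -0.038 to 0.052 for Sema3b, -0.040 to 0.013 for Sema3f, -0.024 to 0.11 for Sema3g and -0.093 to 0.077 for Sema6c. They ran from -0.069 to 0.0070 for Plxna3, -0.062 to 0.037 for Plxnb2, -0.037 to 0.072 for Ephb3, -0.045 to 0.015 for Efna1, -0.091 to 0.10 for Efna2, -0.023 to 0.16 for Efna5 and -0.019 to 0.0094 for Efnb2. The cause of these changes was not tested. Signal over background cannot be judged from centred values, so the depth of detection of each gene is unknown.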
